A study of Mus musculus with 6 samples.

Results

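Cyclin-dependent kinase (CDK) inhibitors are small proteins that bind CDKs or their cyclin complexes and hold back entry into, or passage through, the cell cycle. The 7 genes described here were taken by symbol from the 53465 genes of the deposited table, which holds each symbol on 1 row. They are the 3 genes of the CIP/KIP family, Cdkn1a (protein p21), Cdkn1b (p27) and Cdkn1c (p57), and the 4 genes of the INK4 family, Cdkn2a (p16 and, from another reading frame, p19Arf), Cdkn2b (p15), Cdkn2c (p18) and Cdkn2d (p19).

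CIP/KIP proteins bind a broad range of cyclin-CDK complexes, above all those of CDK2, while INK4 proteins bind only CDK4 and CDK6 and keep them from D-type cyclins. Free CDK activity phosphorylates the retinoblastoma protein family, which releases E2F transcription factors and starts S phase. In mouse haematopoietic stem cells Cdkn1a is the classic target of p53 after radiation, Cdkn1b and Cdkn1c are known for holding stem cells out of the cycle, Cdkn2c for limiting their self-renewal, and the Cdkn2a locus is kept silent by Polycomb proteins.

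Transcripts were measured by RNA sequencing in mouse bone marrow cells sorted through a gate for long-term haematopoietic stem cells (lineage markers absent, Sca-1 and c-Kit present, Flk2 and CD34 absent). The carnosine group had 3 libraries from wild-type mice given carnosine, the dipeptide beta-alanyl-histidine, after 5.0 Gy of total body radiation. The saline group had 3 libraries from wild-type mice given saline after the same radiation. Every mouse was irradiated, so no value here is a level without radiation, and the labels give neither age, sex nor the dose, route or timing of carnosine. Whether each library stands for a different mouse is not stated in the labels. The p-values therefore rest on the spread among libraries alone, and that spread may be technical. Total counts ran from 12730837 to 13651553 in carnosine libraries and from 12602067 to 16866534 in saline libraries. Levels are given as CPM, counts scaled to library size by the TMM method, unless FPKM, the deposited value scaled to gene length as well, is named. In bulk RNA, fewer cells of a type and less RNA per cell cannot be told apart.

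Of the 7 inhibitors, 5 passed the low-count filter and 2 of these, Cdkn1a and Cdkn2d, were lower in carnosine libraries at a Benjamini-Hochberg adjusted p under 0.05 (edgeR's quasi-likelihood test). None was higher. Over all 15533 genes tested, 39.4% were called in either direction and 19.8% were called lower, so a call of this kind was common in these libraries. Cdkn1a stood out by size: it was 4.52-fold lower, and only 106 of the tested genes had a lower log2 fold change. Cdkn1b was lower in every carnosine library without passing the test, Cdkn1c and Cdkn2c did not pass it, and Cdkn2a and Cdkn2b had too few counts to be tested.

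The promoter stretches shown here belong to the inhibitors whose carnosine libraries all lay below their saline libraries. They show the motif matches on which the next paragraph reports. They are RefSeq sequence of GRCm38.p6, 5′ to 3′ on the strand of the gene, and overlap no exon of the GENCODE M21 annotation. The Cdkn1a and Cdkn1b stretches run from 110 to 11 bases before a RefSeq start, and the Cdkn2d stretch from 250 to 199 bases before it. Capitals mark a p53 response element in the Cdkn1a stretch (chr17:29090869-29090968, plus strand), a GC box and a CCAAT box in the Cdkn1b stretch (chr6:134920291-134920390, plus strand), and an inverted CCAAT box in the Cdkn2d stretch (chr9:21291408-21291459, minus strand).
Cdkn1a: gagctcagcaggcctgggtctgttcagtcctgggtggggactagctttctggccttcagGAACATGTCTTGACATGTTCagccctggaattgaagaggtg
Cdkn1b: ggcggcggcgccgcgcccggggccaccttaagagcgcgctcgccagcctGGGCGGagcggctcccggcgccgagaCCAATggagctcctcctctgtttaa
Cdkn2d: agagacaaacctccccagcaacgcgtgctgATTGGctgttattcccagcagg

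Motifs were searched on both strands in the 250 bases before each RefSeq start, which were present for 6 of the 7 inhibitors. The p53 response element, searched as 2 adjacent half-sites of 10 bases with at most 1 base off the consensus, lay 51 to 32 bases before the upstream start of Cdkn1a. Such a match occurred in 15 of 32851 promoter windows (0.0457%) and in no other window of these inhibitors. The window at the downstream start of Cdkn1a held GC boxes (GGGCGG) at 104 to 99 and 46 to 41 bases before that start. Cdkn1b held CCAAT boxes (CCAAT) 161 to 157 and 35 to 31 bases before its start and a GC box at 61 to 56. Cdkn2d held an inverted CCAAT box at 220 to 216 and GC boxes at 118 to 113, 106 to 101 and, inverted, 38 to 33. GC boxes also lay in 1 window each of Cdkn2c (95 to 90, 51 to 46 and 40 to 35) and Cdkn2a (48 to 43 and 14 to 9). Some RefSeq starts lie inside the locus of the deposited table. The GC boxes of Cdkn2d, Cdkn2c and the downstream Cdkn1a start, and the Cdkn2a box at 14 to 9, therefore fall within those loci. GC boxes were in 32.7% and CCAAT boxes in 33.8% of all windows, so these letters are frequent. No TATA box (TATAAA), FOXO site (GTAAACA) or E box (CACGTG) was found in the windows of the 6 inhibitors, against 12.4%, 3.17% and 6.02% of all windows. A match is a description of the letters and does not show binding.

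Cdkn1a (ENSMUSG00000023067, chromosome 17, 29090979 to 29100722, GRCm38) encodes p21, which binds cyclin-CDK2 complexes and, through a separate region, the replication clamp PCNA. It was at 40.8, 36.6 and 43.6 CPM in the carnosine libraries, against 185, 180.5 and 182 CPM in the saline libraries. All carnosine libraries lay far below all saline libraries, and the widest gap within a group was small beside the gap between groups. The means were 40.4 ± 3.53 CPM with carnosine and 182 ± 2.27 CPM with saline (SD, n = 3 each). Cdkn1a fell by 2.18 on the log2 scale (SE 0.0618, 95% interval -2.32 to -2.03; edgeR's quasi-likelihood test, adjusted p = 7.5e-07), which is 4.52-fold, with an interval of 4.09 to 5.00-fold. Its p-value ranked 51 among the 15533 genes, and the call held in all 16 alternative settings. Of the genes tested, 3.53% were called and at least 2-fold lower. The exact two-sided permutation test on the 6 libraries gave p = 0.10, the smallest value that 3 against 3 libraries allow.

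Cdkn1b (ENSMUSG00000003031, chromosome 6, 134920401 to 134925513, GRCm38) encodes p27, which accumulates in resting cells and is removed by the SKP2 ubiquitin ligase when they enter the cycle. It was at 89.6, 84.4 and 56.8 CPM in the carnosine libraries, against 99.6, 99.3 and 99.0 CPM in the saline libraries. The groups did not overlap, yet carnosine replicate 3 lay far below the other 2 carnosine libraries while the saline libraries were almost equal. Among all genes tested, 26.1% had groups that did not overlap with carnosine lower and 26.2% with carnosine higher. The means were 76.9 ± 17.6 CPM with carnosine and 99.3 ± 0.313 CPM with saline (SD, n = 3 each). The log2 fold change was -0.37 ± 0.152 (SE, 95% interval -0.72 to -0.011), with an adjusted p of 0.096 by edgeR's quasi-likelihood test, which misses the threshold.

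The status of Cdkn1b depended on carnosine replicate 3 and on the test used. Without that library the log2 fold change was -0.19, smaller, and passed (edgeR's quasi-likelihood test, adjusted p = 0.018), and the DESeq2 Wald test on all libraries gave an adjusted p of 0.041. The adjusted p ran from 0.018 to 0.18 over 16 alternatives, of which 2 passed. The highest carnosine library of Cdkn1b was 1.58 times its lowest, and 3.77% of 11393 genes of at least 5 CPM varied that much or more among carnosine libraries. The corresponding ratio among saline libraries was 1.01, and 99.4% of 11359 genes were as wide or wider.

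Cdkn1c (ENSMUSG00000037664, chromosome 7, 143458339 to 143461050, GRCm38), an imprinted gene whose product p57 marks the most dormant stem cells in mice, was scarce. Its counts were 21, 19 and 14 in the carnosine libraries, against 33, 19 and 16 in the saline libraries. The groups overlapped, and the highest count was in saline replicate 1. The levels were 1.32 ± 0.219 CPM with carnosine and 1.51 ± 0.425 CPM with saline (SD, n = 3 each). The log2 fold change was -0.21 ± 0.265 (SE, 95% interval -0.83 to 0.42; edgeR's quasi-likelihood test, adjusted p = 0.58), and it turned to 0.067 without saline replicate 1. At this depth a change of up to 1.77-fold lower lay within the interval. The antisense gene Gm44732, which overlaps Cdkn1c, had 1 count over the carnosine libraries and 0 over the saline libraries.

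**Figure D1:**
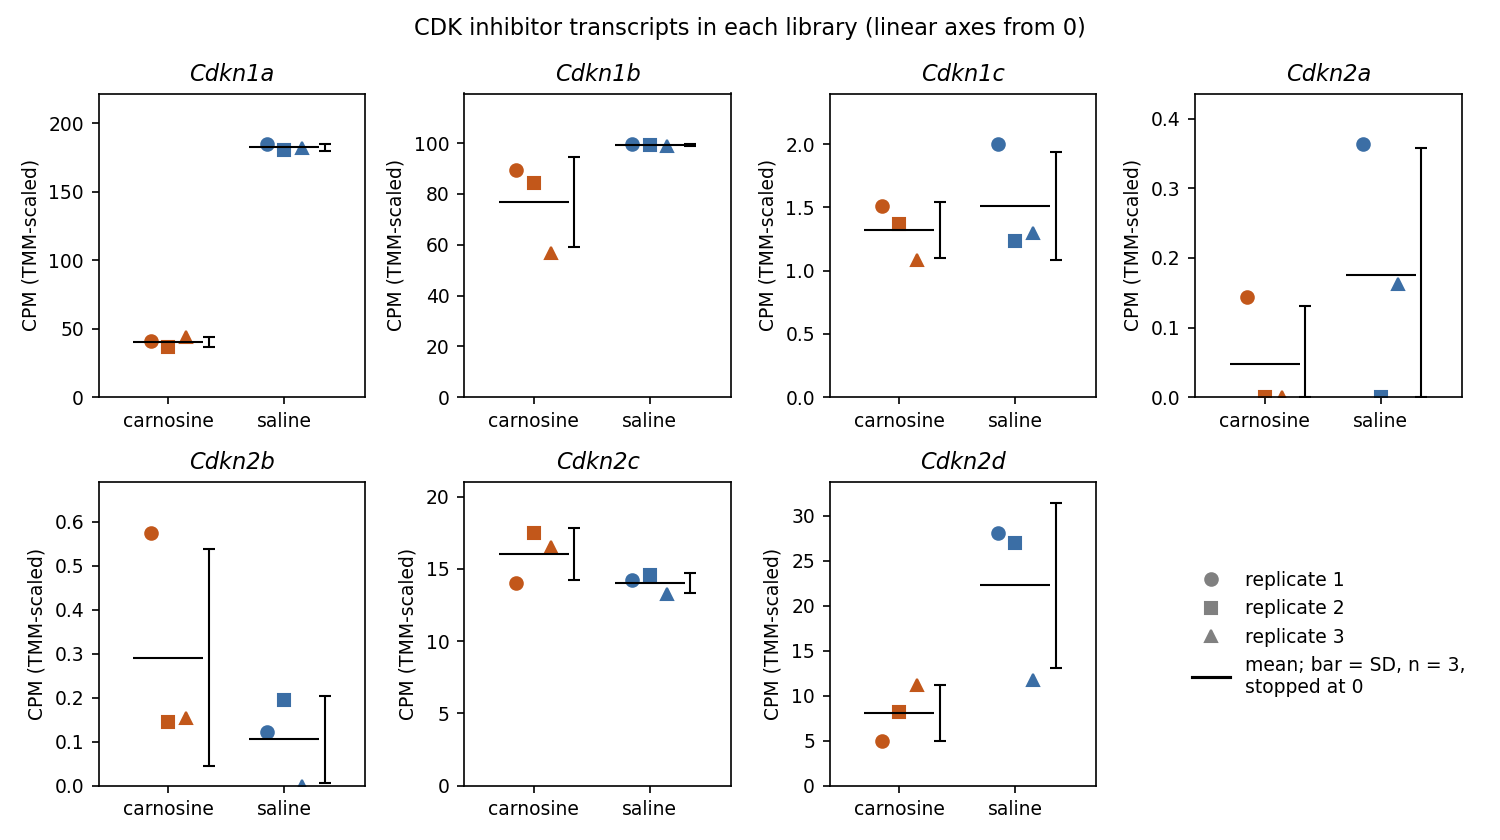
Level of each of the 7 CDK inhibitors in each library, in TMM-scaled CPM on linear axes that start at 0, with carnosine left of saline; marker shapes are replicates, lines are means and bars the SD of 3 libraries, stopped at 0. Cdkn1a separates the groups by over 4-fold, Cdkn1b has a low carnosine replicate 3, and Cdkn2d has a saline replicate 3 that lies at 11.7 CPM, close to carnosine replicate 3 at 11.2 CPM.

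Cdkn2d (ENSMUSG00000096472, chromosome 9, 21288410 to 21291407, GRCm38) encodes the INK4 protein p19, an inhibitor of CDK4 and CDK6 that is distinct from p19Arf. It was at 4.96, 8.15 and 11.2 CPM in the carnosine libraries, against 28.1, 27 and 11.7 CPM in the saline libraries. Saline replicates 1 and 2 were high and close together, while saline replicate 3 lay just above the highest carnosine library, so the groups did not overlap but nearly touched. The means were 8.10 ± 3.12 CPM with carnosine and 22.3 ± 9.18 CPM with saline (SD, n = 3 each). Cdkn2d fell by 1.47 on the log2 scale (SE 0.387, 95% interval -2.38 to -0.56; edgeR's quasi-likelihood test, adjusted p = 0.021), or 2.78-fold with an interval of 1.48 to 5.22-fold.

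The call of Cdkn2d did not hold when any of 4 libraries was left out. The adjusted p was 0.058 without carnosine replicate 1, 0.059 without carnosine replicate 2, 0.065 without saline replicate 1 and 0.064 without saline replicate 2 (edgeR's quasi-likelihood test). Without saline replicate 3 the log2 fold change was -1.77 and the adjusted p 0.0044. The direction was lower in all 16 alternatives, and the adjusted p ran from 0.0044 to 0.065. Counts were 69, 113 and 145 in the carnosine libraries and 464, 416 and 144 in the saline libraries. The highest library was 2.26 times the lowest among carnosine libraries, where 1.28% of 11393 genes were as wide or wider. It was 2.40 times the lowest among saline libraries, where 0.951% of 11359 genes were as wide or wider. Cdkn2d was thus among the most variable genes within each group.

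Cdkn2c (ENSMUSG00000028551, chromosome 4, 109660876 to 109667189, GRCm38) encodes p18. It was at 14.0, 17.5 and 16.5 CPM in the carnosine libraries, against 14.2, 14.6 and 13.2 CPM in the saline libraries. Carnosine replicates 2 and 3 lay above every saline library, and carnosine replicate 1 lay among them. The means were 16.02 ± 1.802 CPM with carnosine and 14.0 ± 0.707 CPM with saline (SD, n = 3 each). The log2 fold change was 0.19 ± 0.0995 (SE, 95% interval -0.045 to 0.42; edgeR's quasi-likelihood test, adjusted p = 0.18), and none of 16 alternatives passed (adjusted p from 0.0502 to 0.42).

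Cdkn2a (ENSMUSG00000044303, chromosome 4, 89274471 to 89294653, GRCm38) and Cdkn2b (ENSMUSG00000073802, chromosome 4, 89306289 to 89311032) lie side by side, 11635 bases apart. Cdkn2a had counts of 2, 0 and 0 in the carnosine libraries, against 6, 0 and 2 in the saline libraries. Cdkn2b had counts of 8, 2 and 2 in the carnosine libraries, against 2, 3 and 0 in the saline libraries. Both were at the edge of detection in both groups, with no library above 0.575 CPM, and neither passed the filter. The ratio of summed counts per depth, carnosine over saline, was 0.271 for Cdkn2a (95% counting interval 0.0281 to 1.36) and 2.61 for Cdkn2b (0.854 to 9.44), so each interval held 1. With no filter, the adjusted p was 0.46 for Cdkn2a and 0.39 for Cdkn2b (edgeR's quasi-likelihood test). Counts per gene cannot tell p16 from p19Arf, which share exons of Cdkn2a.

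**Figure D2:**
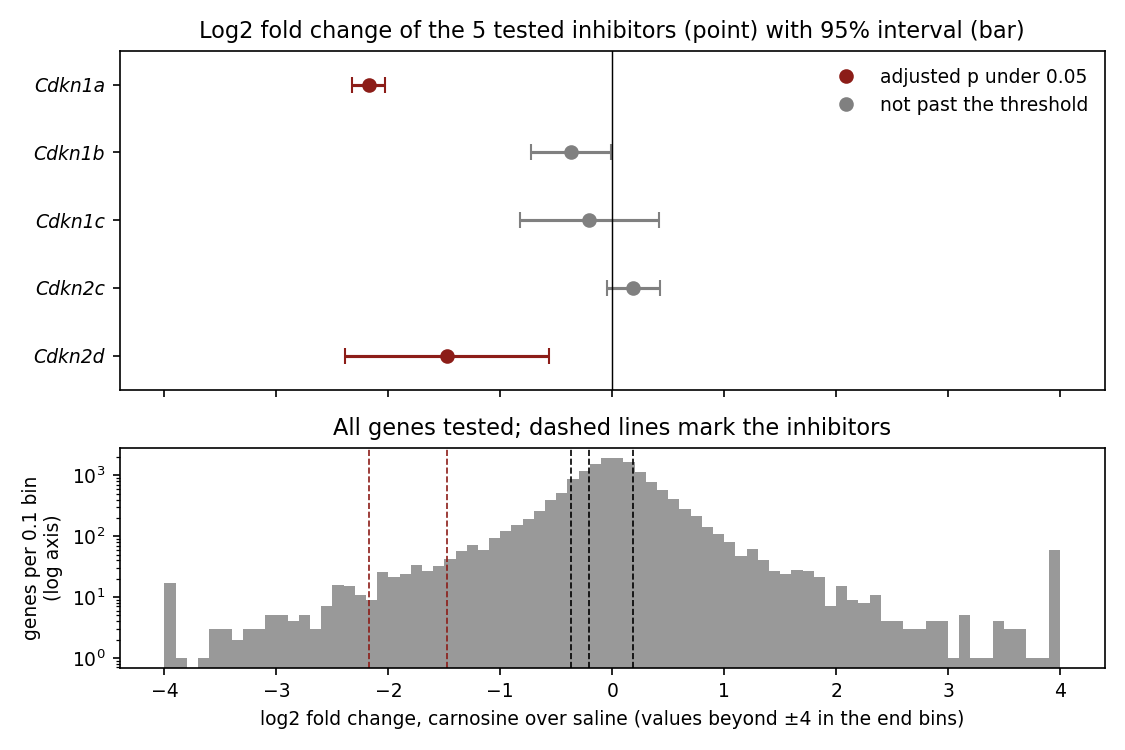
Log2 fold change (carnosine over saline) of the 5 tested inhibitors with 95% intervals in the upper panel, and the number of tested genes per bin of log2 fold change, on a log axis, in the lower panel, where dashed lines mark the same 5 genes. Cdkn1a at -2.18 and Cdkn2d at -1.47 sit in the lower tail, and the other 3 sit in the bulk of all genes.

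Levels of different genes can be set side by side only per length. In the deposited FPKM values, Cdkn1a was the most abundant inhibitor with carnosine (13.4 ± 1.16 FPKM), followed by Cdkn1b (10.3 ± 2.38), Cdkn2c (5.77 ± 0.647), Cdkn2d (2.44 ± 0.938) and Cdkn1c (0.259 ± 0.0431; SD, n = 3 each). With saline the order was Cdkn1a (58.1 ± 0.673 FPKM), Cdkn1b (12.8 ± 0.0536), Cdkn2d (6.46 ± 2.67), Cdkn2c (4.86 ± 0.253) and Cdkn1c (0.285 ± 0.0801; SD, n = 3 each). Cdkn2a and Cdkn2b were at or below 0.421 FPKM in every library, a range that holds the values of Cdkn1c. With carnosine the ranges of Cdkn1a (12.1 to 14.4 FPKM) and Cdkn1b (7.62 to 12.0 FPKM) nearly touched, and Cdkn1a was higher in all 3 libraries. In these FPKM values Cdkn2c exceeded Cdkn2d in every carnosine library. In the saline group Cdkn2d exceeded Cdkn2c in replicates 1 and 2 and lay below it in replicate 3. These orders depend on the gene lengths, as the next paragraph shows.

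The gap between Cdkn1a and Cdkn1b narrowed with carnosine. On the FPKM scale log2(Cdkn1a over Cdkn1b) was 0.17, 0.097 and 0.92 in the carnosine libraries, against 2.19, 2.16 and 2.18 in the saline libraries. All carnosine libraries were lower, with means of 0.40 ± 0.457 with carnosine and 2.18 ± 0.0153 with saline, a difference of -1.78 (SD, n = 3 each; exact two-sided permutation p = 0.10, the smallest possible). This difference does not depend on the gene lengths, but the sign within the carnosine group does. The lengths behind the deposited FPKM values equal the summed lengths of all distinct annotated exons, overlapping exons counted repeatedly, for 88.1% of 10699 genes checked. That length was 7580 bases for Cdkn1b, which is longer than its 5113-base locus, and merged exons cover 4552 bases. Cdkn1a is one of the genes outside that rule: its length was 3074 bases, against 6604 bases for its summed distinct exons and 3553 bases for its merged exons. Rescaled to 6604 bases, Cdkn1a was at 6.22 ± 0.541 FPKM with carnosine and 27.04 ± 0.313 FPKM with saline (SD, n = 3 each), below Cdkn1b with carnosine and above it with saline. Per kilobase of merged exons, Cdkn1b was at 16.9 ± 3.88 CPM and Cdkn1a at 11.4 ± 0.994 CPM with carnosine, the reverse of the FPKM order, while with saline they were at 21.8 ± 0.0687 and 51.4 ± 0.638 CPM (SD, n = 3 each). Carnosine replicate 3 had nearly equal levels of both on that scale, with a log2 ratio of -0.022. The length of Cdkn2d was 3378 bases behind its FPKM and 1574 bases for its merged exons. Per kilobase of merged exons Cdkn2d exceeded Cdkn2c in carnosine replicate 3 (7.11 against 6.15 CPM) and in every saline library (replicate 3, 7.43 against 4.93 CPM). Cdkn1c then lay above Cdkn2a and Cdkn2b, at 0.530 CPM or more against 0.414 CPM or less.

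Summed over the family, CIP/KIP transcripts were 25.9, 23.7 and 22.3 FPKM in the carnosine libraries, against 72.1, 70.6 and 70.9 FPKM in the saline libraries. The groups were far apart, at 24.0 ± 1.81 FPKM with carnosine and 71.2 ± 0.776 FPKM with saline (SD, n = 3 each; 2.97-fold, exact two-sided permutation p = 0.10). Cdkn1a made up 52.3%, 51.1% and 64.8% of that sum in the carnosine libraries, against 81.6%, 81.5% and 81.6% in the saline libraries. With Cdkn1a rescaled to its summed distinct exons, the CIP/KIP sum was 16.8 ± 2.08 FPKM with carnosine and 40.1 ± 0.418 FPKM with saline, and the share of Cdkn1a was 37.6 ± 7.48% with carnosine and 67.3 ± 0.133% with saline (SD, n = 3 each). On merged exon lengths that share was 39.8 ± 7.59% with carnosine and 69.5 ± 0.108% with saline. The family mean was 47.2 FPKM lower with carnosine, and Cdkn1a made up most of that difference, with means of 13.4 FPKM with carnosine and 58.1 FPKM with saline.

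INK4 transcripts summed to 7.08, 8.87 and 9.43 FPKM in the carnosine libraries, against 13.4, 13.04 and 8.07 FPKM in the saline libraries. Saline replicate 3 lay inside the carnosine range, so the groups overlapped, at 8.46 ± 1.23 FPKM with carnosine and 11.5 ± 2.98 FPKM with saline (SD, n = 3 each; exact two-sided permutation p = 0.30). Cdkn2d made up 28.2 ± 7.31% of the sum with carnosine and 54.2 ± 10.7% with saline, and on merged exon lengths 44.1 ± 8.90% with carnosine and 70.2 ± 9.35% with saline (SD, n = 3 each). The log2 difference of the INK4 sum was -0.44. Without Cdkn2d, left out after its values were seen, it was 0.25, and on merged exon lengths with all 4 genes it was -0.79.

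**Figure D3:**
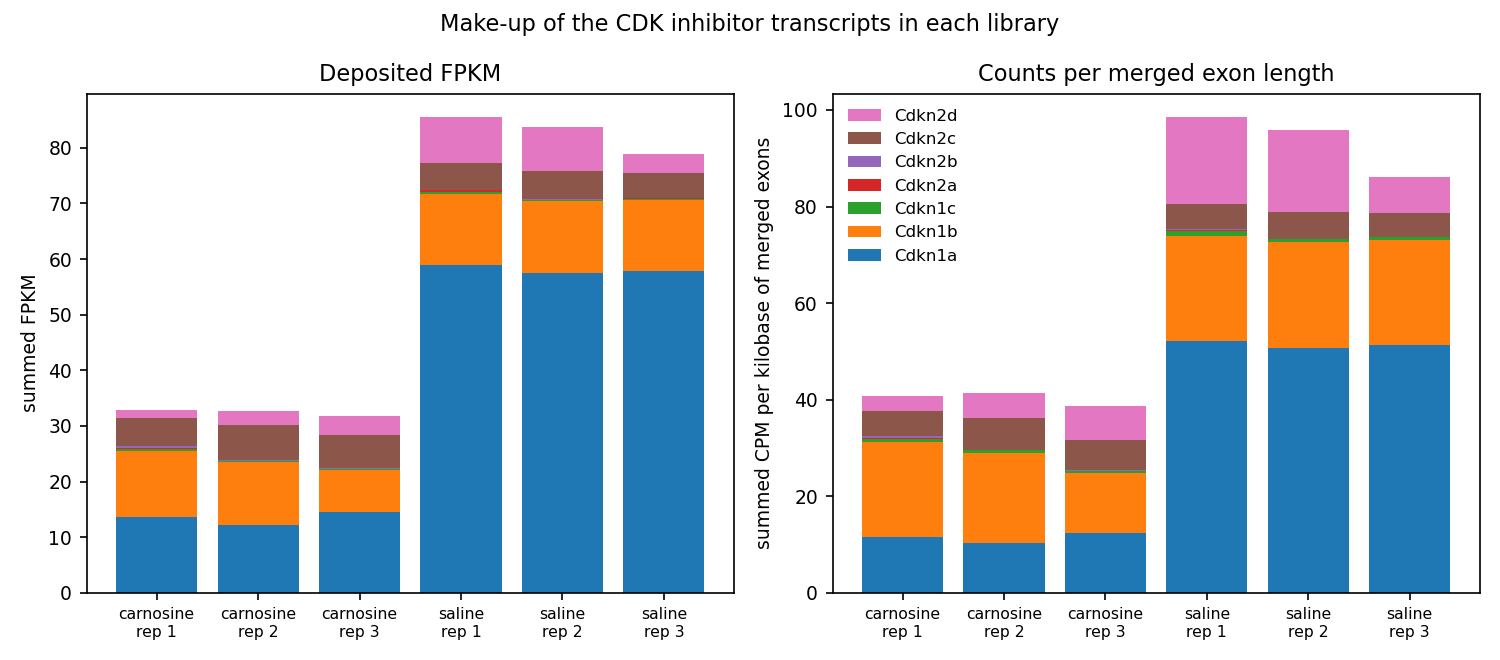
Make-up of the CDK inhibitor transcripts in each library, as stacked bars of deposited FPKM (left) and of TMM-scaled CPM per kilobase of merged exons (right), with carnosine replicates left of saline replicates. The sum of the 7 genes is 31.7 to 32.9 FPKM in carnosine libraries and 78.9 to 85.5 FPKM in saline libraries on the left, and the share of Cdkn1a is smaller, relative to Cdkn1b, on the right.

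The 4 inhibitors of at least 5 CPM were compared with 9907 protein-coding genes by the root mean square difference of mean-centred log2 CPM over the 6 libraries. Cdkn1a was most like the nuclear receptor gene Nr4a3 (difference 0.054), the small MAF protein gene Maff (0.060) and the repressor gene Bhlhe40 (0.079). Bhlhe40 was at 47.6, 47.6 and 47.7 CPM in the carnosine libraries, against 219, 224 and 211 CPM in the saline libraries. Cdkn1b was most like Diablo (0.060), whose product relieves inhibition of caspases, the kinase gene Map3k8 (0.071) and Nfya (0.077), which encodes a subunit of the CCAAT-binding factor NF-Y. Diablo was at 54.1, 52.5 and 31.0 CPM in the carnosine libraries, against 60.9, 58.2 and 58.9 CPM in the saline libraries. Nfya was at 145, 140.4 and 81.0 CPM in the carnosine libraries, against 147, 149 and 154 CPM in the saline libraries. The 3 genes nearest to Cdkn1b were also low in carnosine replicate 3, and none passed the test. Both follow from the way they were picked, by likeness to Cdkn1b over these same libraries.

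Cdkn2c was most like Tbc1d19 (0.031), Gpr137 (0.034) and the Polycomb gene Ring1 (0.037), which also did not pass. Cdkn2d had no close match: the nearest were the tyrosine kinase gene Abl1 (0.33), Mtss1l (0.35) and the adenosine receptor gene Adora2a (0.35). Abl1 was at 58.7, 52.5 and 71.3 CPM in the carnosine libraries, against 179, 179 and 75.0 CPM in the saline libraries. As for Cdkn2d, saline replicate 3 of Abl1 lay near the carnosine libraries, and Abl1 fell by 1.25 on the log2 scale (SE 0.317; edgeR's quasi-likelihood test, adjusted p = 0.018). The nearest genes were picked for their likeness out of 9907, so the differences describe these libraries only.

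**Figure D4:**
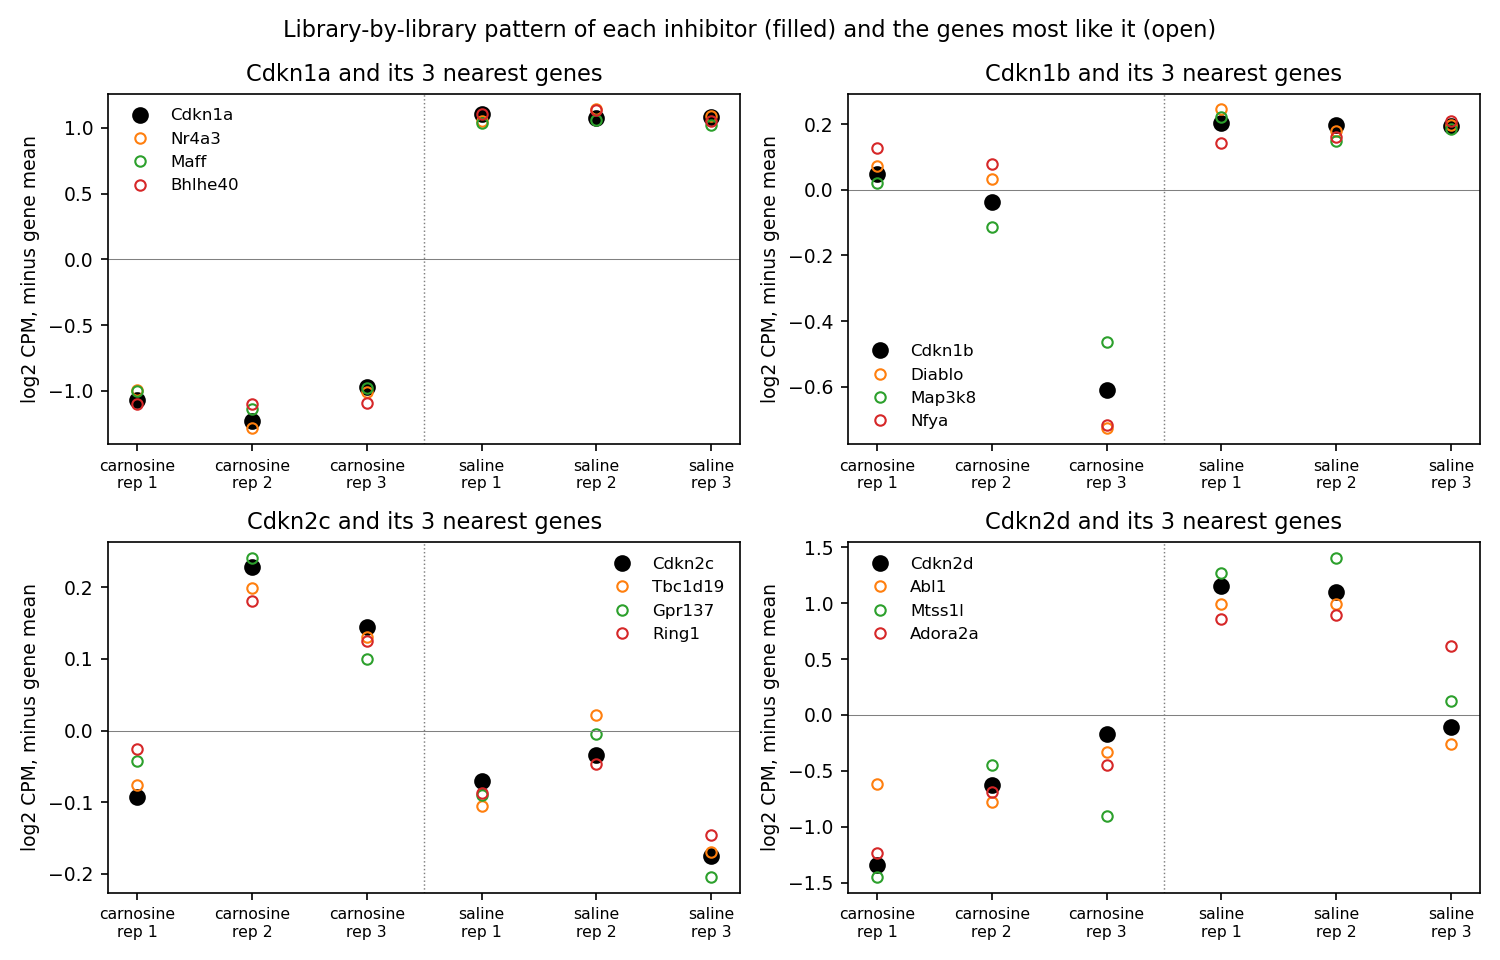
Log2 CPM minus the gene's own mean in each library, carnosine replicates left of saline replicates, for Cdkn1a, Cdkn1b, Cdkn2c and Cdkn2d (filled) and the 3 genes most like each (open). The genes nearest to Cdkn1b, picked for likeness over these libraries, follow its low carnosine replicate 3. The points around Cdkn2d are more scattered (differences of 0.33 to 0.35) than those around Cdkn1a (0.054 to 0.079).

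Genes beside the inhibitors were read from the coordinates of the deposited table. Downstream of Cdkn1a, Gm16194 was higher, at 42.6 CPM with carnosine and 27.2 CPM with saline (log2 fold change 0.65 ± 0.0557, SE; edgeR's quasi-likelihood test, adjusted p = 1.3e-04). The p53-induced RNA Trp53cor1, which lies upstream of Cdkn1a and was named here after its values were seen, had counts of 22, 15 and 15 in the carnosine libraries, against 15, 18 and 8 in the saline libraries, and did not pass (log2 fold change 0.46 ± 0.285, SE; adjusted p = 0.24, edgeR). Lockd, a noncoding RNA downstream of Cdkn1b that was also named after its values were seen, fell by 0.39 on the log2 scale (SE 0.0986; edgeR's quasi-likelihood test, adjusted p = 0.019). It was at 9.78, 8.07 and 8.96 CPM in the carnosine libraries, against 12.0, 12.0 and 10.97 CPM in the saline libraries, with no low carnosine replicate 3. Gm44238, which overlaps Lockd, had 6 counts over the carnosine libraries and 9 over the saline libraries. Kri1 lies 440 bases from Cdkn2d and did not pass (log2 fold change 0.081 ± 0.0878, SE; adjusted p = 0.50, edgeR), nor did Faf1 beside Cdkn2c (-0.033 ± 0.0459, SE; adjusted p = 0.60, edgeR).

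Around the inhibitors, 8 lists of pathway genes held 167 different tested genes, with 50 called higher in carnosine libraries and 47 called lower at an adjusted p under 0.05 by edgeR's quasi-likelihood test. Over all tested genes 19.6% were higher and 19.8% lower, and the median log2 fold change was -5.0e-05. Among the CDKs and cyclins that the inhibitors bind, 3 of 12 tested genes were higher and 2 lower, with a list median of 0.0094. The counts were 5 higher and 2 lower with total count scaling, and 3 higher and 4 lower without saline replicate 1. Ccnb1, the mitotic cyclin, was at 52.0 ± 0.115 CPM with carnosine and 31.5 ± 1.06 CPM with saline (SD, n = 3 each), with a log2 fold change of 0.72 ± 0.0484 (SE; edgeR's adjusted p = 4.0e-05). Cdk1, its kinase, rose by 0.55 and Ccna2 by 0.32. Cdk6, the INK4 target, was at 927 ± 5.06 CPM with carnosine and 1058 ± 5.84 CPM with saline, a small fall (-0.19 ± 0.0182, SE; adjusted p = 2.2e-04, edgeR), and its partner Ccnd2 fell by 0.15.

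The other direct partners did not pass the test in the main setting. Over 16 alternatives Ccnd1 passed in 4, Cdk2 in 2, Ccnd3 in 1, and Cdk4 and Ccne1 in 0. All carnosine libraries of Ccnd1 lay above its saline libraries, as for 26.2% of all genes tested. Cdk4 had a log2 fold change of -0.066 (95% interval -0.16 to 0.024), Ccnd1 of 0.15 (0.024 to 0.27) and Ccne1 of -0.035 (-0.14 to 0.067). Cdk2 was at 77.2, 67.6 and 67.5 CPM in the carnosine libraries, against 74.3, 122 and 90.6 CPM in the saline libraries. Ccnd3 was at 37.4, 23.2 and 22.0 CPM in the carnosine libraries, against 28.7, 45.2 and 78.7 CPM in the saline libraries. For both genes the groups overlapped and the saline libraries were wide apart (Cdk2 log2 fold change -0.43, adjusted p = 0.079; Ccnd3 -0.88, adjusted p = 0.104; edgeR).

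Of 17 genes of pocket proteins, E2F factors and the DREAM complex, the readers of CDK activity, 5 were higher and 4 lower, with a median of 0.031. Rbl1 (0.21), Tfdp1 (0.28) and E2f4 (0.15) rose, as did Rbl2 and E2f8, while E2f1 fell by 0.27, and E2f2, Lin54 and E2f7 fell as well. This count was 4 without carnosine replicate 1, 4 without carnosine replicate 3 and 5 without saline replicate 2, in place of 9, and with total count scaling 6 were higher and 1 lower. Rbl2, E2f8, E2f2, Lin54 and E2f7 were named after their values were seen.

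Of 15 genes listed for the turnover of inhibitor proteins, 3 were higher and 1 lower, with a median of 0.014, or 4 higher and 2 lower without saline replicate 1. Skp2, the receptor that recruits p27 to its ubiquitin ligase, was at 31.8, 31.4 and 30.4 CPM in the carnosine libraries, against 22.7, 19.5 and 13.2 CPM in the saline libraries. All carnosine libraries were higher, and Skp2 rose by 0.74 on the log2 scale (SE 0.172; edgeR's quasi-likelihood test, adjusted p = 0.012), past the threshold in all 16 alternatives. Cks1b, the cofactor of SKP2 in p27 recognition, did not pass (-0.057 ± 0.113, SE; adjusted p = 0.73, edgeR). The anaphase-promoting complex activators Cdc20 (0.51) and Fzr1 (0.23) rose, and Dtl, whose product directs p21 for degradation in S phase, fell by 0.18.

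Of 30 tested transcription factors and chromatin regulators that act on inhibitor genes, 17 were lower and 3 higher, with a median of -0.25, or 14 lower and 5 higher with total count scaling. Egr1, an immediate early factor known for keeping mouse stem cells out of the cycle, was at 341 ± 4.07 CPM with carnosine and 917 ± 24.4 CPM with saline (SD, n = 3 each), with a log2 fold change of -1.42 ± 0.0265 (SE; edgeR's adjusted p = 1.5e-07). Klf6 (-1.09), Hes1 (-1.65) and Id1 (-1.31) fell too. Trp53, which encodes p53 itself, was at 248 ± 9.49 CPM with carnosine and 235 ± 6.47 CPM with saline and did not pass (0.077 ± 0.0364, SE; adjusted p = 0.14, edgeR). Further members named after their values were seen were Klf4 (-1.59), Foxo1 (-1.05) and Foxo3 (-0.41), which fell. The Polycomb genes Bmi1 (-0.18), Rnf2 (-0.19), Suz12 (-0.11) and Eed (-0.26) fell by less. Other listed Polycomb genes did not pass: Ezh2 (0.049), Cbx7 (0.13), Ring1 (0.19) and Cbx8 (-0.19). The 3 that rose, also outside the rule for named genes, were Myc (0.68), Cebpa (0.52) and Men1 (0.15).

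Targets of p53 other than Cdkn1a were split, with 8 of 32 lower, 6 higher and a median of 0.0023. The count of higher genes was 2 without carnosine replicate 1 (8 lower), 2 without carnosine replicate 2 (9 lower) and 3 by the DESeq2 Wald test (8 lower). Those with the smallest p-values all fell: Plk2 (log2 fold change -2.40), Plk3 (-1.63), the cell death gene Bbc3 (-1.59) and Btg2 (-0.81). Plk2 was at 10.4 ± 0.201 CPM with carnosine and 54.6 ± 2.96 CPM with saline (SD, n = 3 each; adjusted p = 5.8e-07, edgeR). In contrast, Bax (-0.0098, 95% interval -0.30 to 0.28) and Pmaip1 (-0.014, -0.11 to 0.079), p53 targets in cell death, did not pass, and Xpc (0.38) and Ccng1 (0.14) rose. Also called lower were Tnfrsf10b (-0.77), Mdm2 (-0.57), Sesn2 (-0.52) and Sesn1 (-0.46). Also called higher were Trp53inp1 (0.66), Gtse1 (0.47), Rrm2b (0.36) and Polk (0.28). The genes of this paragraph from Bax on were named after their values were seen.

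Of 27 S phase genes, 6 were higher and 7 lower with a median of 0.037, and this split became 12 higher and 3 lower when libraries were scaled by total count alone. The count of lower genes was 4 without carnosine replicate 3 and 4 without saline replicate 1, with 6 higher in both. Rrm2, a subunit of ribonucleotide reductase, rose by 0.57 and Cdc45 by 0.29, while Orc1 (-0.53) and Pola1 (-0.14) fell. Of 23 G2 and M phase genes, 21 were higher and 1, Cdc25b, lower, with a median of 0.47. These counts were the same with total count scaling, and were 20 higher and 0 lower by the DESeq2 Wald test. Cdc25b passed in 13 of 16 alternatives. It did not pass by the DESeq2 Wald test, without carnosine replicate 3 or without saline replicate 1. Hmmr was at 113 ± 2.95 CPM with carnosine and 62.0 ± 2.35 CPM with saline (SD, n = 3 each), with a log2 fold change of 0.86 ± 0.0432 (SE; edgeR's adjusted p = 9.7e-06). Anln rose by 0.80, Kif20a by 0.52, Top2a by 0.26 and the proliferation marker Mki67 by 0.12.

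Among 14 other brakes on the cell cycle, 8 were lower and 3 (Wee1, Cables1 and Pkmyt1, named after their values were seen) higher, with a median of -0.58. The count of higher genes was 1 without carnosine replicate 1, carnosine replicate 3, saline replicate 2 or saline replicate 3 and by the DESeq2 Wald test, with 8 lower each time. Wee1 passed in all 16 alternatives, Cables1 in 11 and Pkmyt1 in 7. Gadd45b was at 27.8 ± 1.35 CPM with carnosine and 68.5 ± 0.749 CPM with saline (SD, n = 3 each), with a log2 fold change of -1.30 ± 0.0522 (SE; edgeR's adjusted p = 3.3e-06). The antiproliferative genes Tob2 (-0.87), Btg2 (-0.81) and Btg1 (-0.61) fell too. Btg2 counts in the p53 list as well.

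**Figure D5:**
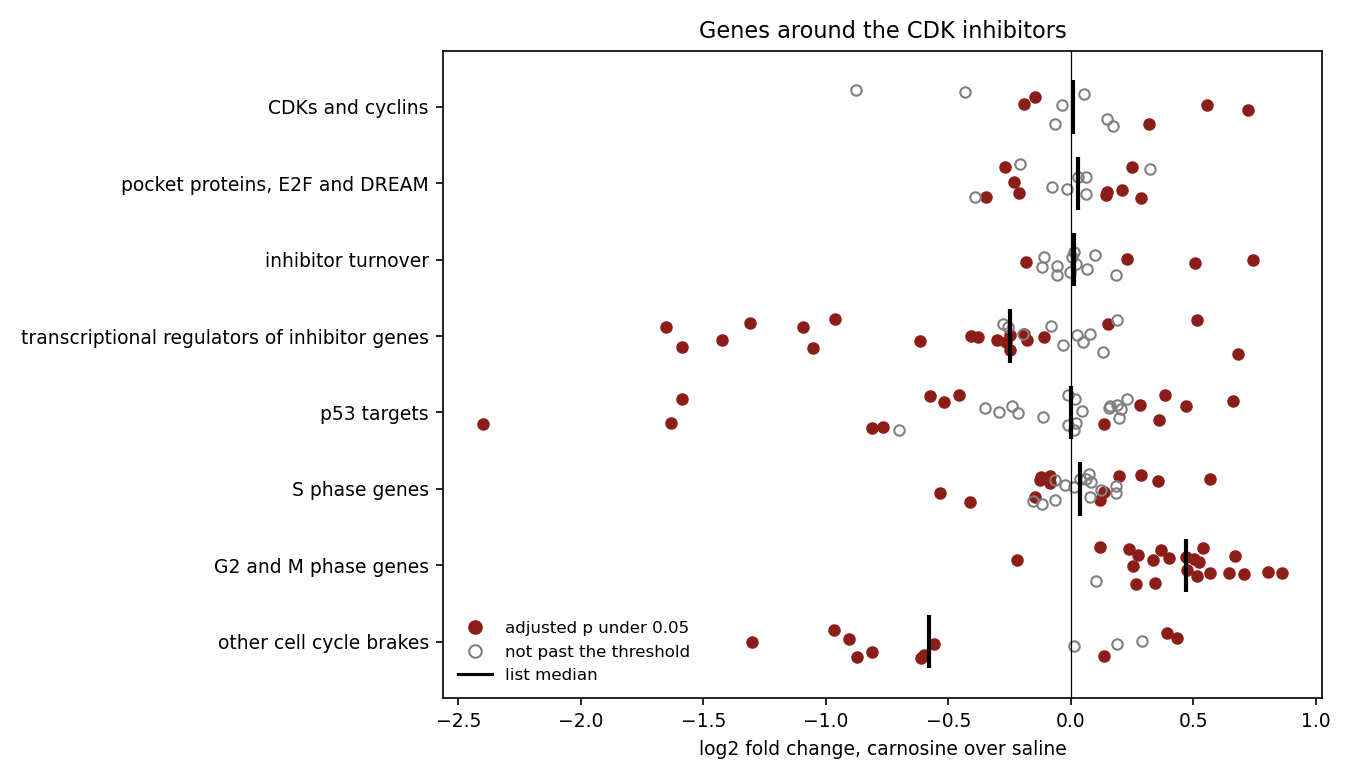
Log2 fold change (carnosine over saline) of every tested gene in the 8 pathway lists, with filled points for an adjusted p under 0.05, open points for the others and a line at each list median. The G2 and M phase genes lie mostly right of 0 (median 0.47), and the regulators of inhibitor genes and the other brakes lie mostly left of it (medians -0.25 and -0.58).

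Markers of other cell types were read as summed levels and as calls per list. Over all genes tested, 19.6% were called higher and 19.8% lower, and the groups did not overlap for 52.3% of single genes. All 11 tested megakaryocyte markers were lower, with the 13 listed genes summing to 242 to 249 CPM in carnosine libraries, against 539 to 570.3 CPM in saline libraries, and with Gp6 at 0 throughout. T and NK cell markers summed to 128 to 137 CPM in carnosine libraries, against 92.1 to 94.8 CPM in saline libraries, with 6 of 8 tested higher and 2 lower. Erythroid markers summed to 1372 to 1443 CPM in carnosine libraries, against 1210.3 to 1265 CPM in saline libraries, with 6 of 11 higher and 3 lower. Endothelial and stromal markers summed to 134 to 142 CPM in carnosine libraries, against 161 to 171 CPM in saline libraries, with 4 of 6 tested lower and 0 higher. In these 4 lists the sums of the groups did not overlap. In the other 3 lists the sums overlapped. B and plasma cell markers summed to 359 to 659.5 CPM in carnosine libraries, against 382 to 390.0 CPM in saline libraries (4 of 12 higher, 1 lower). Monocyte and macrophage markers summed to 358 to 387 CPM in carnosine libraries, against 354 to 385 CPM in saline libraries (2 of 8 tested higher, 3 lower). Neutrophil markers summed to 57.3 to 59.2 CPM in carnosine libraries, against 53.8 to 58.1 CPM in saline libraries (3 of 9 tested higher, 3 lower). Among 8 genes of the sort and of stem cell surface markers, Kit rose by 0.20, Flt3 fell by 0.22 and the stem cell gene Slamf1 fell by 0.93 on the log2 scale, while the other 5 did not pass. The sort excluded the proteins of Flt3 and Cd34, yet their RNA was abundant. Flt3 was at 179.9 CPM with carnosine and 210.3 CPM with saline, and Cd34 at 301 CPM with carnosine and 328.5 CPM with saline. These are RNA levels and the gate was on surface protein, so they do not show which cells passed it. LT-HSC is used here only as the name of the gate. The part of these markers in the inhibitor results was not tested.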

How the data were processed

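Each library is a stranded, poly-A selected, paired-end library sequenced on a NovaSeq instrument, per the labels' protocols. The submitters' processing notes name CASAVA 1.8, HISAT2, StringTie, edgeR and GRCm38 with no roles. How reads shared by genes were treated, which annotation was used and whether counting used strand were not given in the sources used here. The deposited table holds whole-number counts, not normalized, and deposited FPKM values per gene and library, per the file headers. Dividing a count by its FPKM value and by the library's total gives a fixed gene length. Every row named a gene, and 0 per-sample columns belonged to other samples.

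Groups and replicate numbers come from the sample titles. The test was run in edgeR 4.0.16 under R 4.3.3 (filterByExpr with a minimum count of 10, TMM, quasi-likelihood F-test, no covariate, Benjamini-Hochberg over 15533 genes holding 99.8% of counts, threshold 0.05). The standard error is the size of the log2 fold change divided by the square root of F. Family sums used FPKM and the exact two-sided permutation test. Counting intervals are exact, at 95%, and cover counting error only. On simulated counts for these libraries (15533 genes), 73 of 100 genes changed 2-fold and 17 of 100 changed 1.3-fold were recovered, with 9 false calls among 99. Only these genes were changed in the simulation, while 39.4% of genes were called in the data. Its rates therefore do not give the sensitivity of the test in these data.

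The members, the 16 gene lists and the tests were chosen with earlier results of these data known. Named genes were all members, the 4 smallest p-values of each pathway list, the direct binding partners, Trp53, Skp2, Cks1b and Mki67, the 3 genes most like each member of at least 5 CPM, and the adjacent rows. Sequences are RefSeq's, GRCm38.p6. The list symbol Skp1 was not found in the table, which holds Skp1a. Libraries of a group differed from each other beyond sampling noise, so none was counted as a duplicate.

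Alternatives were DESeq2 size factors, upper quartile and total count scaling, no filter, a minimum of 5 CPM in 3 libraries, limma-voom (limma 3.58.1), the Wald test of DESeq2 1.42.0, limma-trend with FPKM pseudocounts of 1 and 0.1 (a minimum of 1 FPKM in 3 libraries), the replicate block, a 2-fold minimum and each library left out. Family sums also used a TPM scale and TMM-scaled counts per implied length. Merged and summed distinct exon lengths (GENCODE M21) and the INK4 sum without Cdkn2d were added after seeing the data.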

Additional observations from a re-analysis of the deposited data

How the results depend on the processing

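Cdkn1a kept its direction and its call in all 16 alternatives. With the replicate block, 5231 genes were called in place of 6115, and 1 inhibitor in place of 2, since Cdkn2d had a log2 fold change of -1.43 (adjusted p = 0.062, edgeR). The labels do not say that replicate numbers pair the libraries, and these correlations cannot settle it. They were taken between carnosine and saline libraries, on log2 CPM minus each gene's mean within its group. On these deviations same-numbered libraries correlated at 0.037 to 0.13, and only 1 of 3 pairs exceeded 0.1. Libraries of different numbers correlated at -0.080 to 0.030 on the same deviations. All 6 libraries correlated best with their own number, a hint from the data and not from the design. Leaving out each library gave 1 to 3 called inhibitors, log2 fold changes of -0.49 to -0.19 for Cdkn1b, -0.34 to 0.067 for Cdkn1c (the sign turned without saline replicate 1) and -1.77 to -1.22 for Cdkn2d. The DESeq2 Wald test called Cdkn1b (-0.37, adjusted p = 0.041). A 2-fold minimum left 1024 genes and 10 list genes, by its own construction. Total count scaling split the calls into 3900 higher and 2501 lower, and limma-trend on log2(FPKM + 1) into 3387 and 2156, in place of 3038 and 3077. The DESeq2 Wald test called 8 S phase genes in place of 13. On merged exon lengths, the log2 difference was -1.355 for CIP/KIP, in place of -1.57 (-1.26 on summed distinct exon lengths), and -0.79 for INK4, in place of -0.44, and the INK4 sum without Cdkn2d gave 0.25. The cause of each other change was not tested. Depth limits Cdkn2a, Cdkn2b and Cdkn1c.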

Other observations

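Each library had 0.563% to 0.737% of its genes of at least 5 CPM lying at least 1.5-fold below both other libraries of its group, and 0.379% to 0.528% lying as far above both. Carnosine replicate 3, where Cdkn1b was low, had 0.606% below, and saline replicate 3, where Cdkn2d was low, had 0.634% below. Both values lay within the range of the other libraries. Cdkn1b itself, at 56.8 CPM against 84.4 and 89.6 CPM, fell just short of the 1.5-fold limit and is not in the count. A count of genes past a fixed fold cannot show whether a library departs in particular genes. Why these libraries were low for Cdkn1b and Cdkn2d was not tested.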
